A study of Saccharomyces cerevisiae with 6 samples.

Results

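RNA polymerase II (RNAP II) occupancy was compared between 30 and 60 min after release of yeast cells from a G1 arrest, on an array of 6144 spots. A spot was included when its RNAp ChIP ratio was measured in 2 or more of the 3 replicates at both times, which 5891 of 6144 spots met. RNAp ChIP pulls down DNA crosslinked to the polymerase with an antibody against its subunit Rpb3, so the ratio of immunoprecipitated DNA (IP) to whole cell extract (WCE) reports total RNAP II on a sequence, whether the enzyme is moving or not. Genomic run-on (GRO), for which samples of the same release were taken, instead labels RNA made by polymerases that are still elongating.

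The cells were the haploid laboratory strain BY4741 carrying the plasmid pRS316. All had been grown in synthetic complete medium, held in G1 by the mating pheromone alpha factor and then freed of it, so every group shares the arrest and differs by the time since release. The earlier time is taken as S phase and the later one as G2/M. The paper staged the cells by flow cytometry and budding index, and in part by cell cycle genes read from these same arrays. It describes the 30 min cells as intermediate and enriched in S phase, and most 60 min cells as in G2/M. Each value averages a culture, so a change in the share of cells at a stage and a change of polymerase per cell cannot be told apart. In RNAp ChIP there were 3 replicates, each an IP and a WCE hybridization, at 30 min, at 60 min and at 0 min, the arrested state that is shown for reference. GRO had 3 hybridizations at each time as well, although the description of the 30 min sample mentions only replicates 1 and 2, and each was divided by the genomic DNA signal of its own filter, and no filter served both 30 and 60 min, so that in GRO the filter and the time cannot be told apart. The filters of the RNAp ChIP hybridizations are not given in the sources used here.

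The interval spans much of the program of periodic transcription in budding yeast. Histone genes are transcribed in S phase, when DNA is copied, and are shut off afterwards, whereas a later wave in G2/M includes genes for mitotic cyclins and other mitotic regulators. RNAP II is recruited to and lost from such genes as each wave passes. A polymerase that has backtracked still counts in RNAp ChIP while it gives little or no run-on signal. The files list array positions without gene names, so spots are described here by their position and behaviour, and no probe sequence is shown.

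For the 30 and 60 min RNAp ChIP samples the titles and the descriptions exchange the times. The file names and the descriptions were followed. If the titles were right, every direction between 30 and 60 min given here for RNAp ChIP would turn around. The GRO titles and descriptions give the same times, and across 5698 spots with both measurements the change in occupancy and the change in run-on from 30 to 60 min correlated at Pearson's r = 0.24 under the descriptions, whereas exchanged times would give the same value with a minus sign. Over the 81 combinations of single replicates of the assays this r lay between 0.044 and 0.21. Spots are not independent replicates and share probes, so these values are a description.

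Of the 253 spots left out, 58 had too few values at 30 min only, 45 at 60 min only and 150 at both. No signal above 0 was listed for 38 of them in any of the 12 IP and WCE hybridizations of these times. Among the 5891 spots kept, 5653 had all 3 values at both times and 238 had only 2 at one or both. Median IP intensities ranged from 171 to 220 in the 30 min hybridizations and from 208 to 556 in the 60 min ones. For WCE these ranges were 278 to 344 and 304 to 616. Replicate 3 at 60 min had the highest medians of both, and in its IP 30 spots exceeded an intensity of 20000, against 1 to 7 in the other IP hybridizations of these times. The 2-sided exact permutation test of the median intensities gave p = 0.20 for IP and p = 0.20 for WCE (adjusted p = 0.30 each over the 3 values tested), where 0.10 is the smallest p that 3 against 3 can give. Each ratio was used on the log2 scale after centring on the median of its hybridization pair, so that 0 is the middle spot of the array and all values are relative to it.

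Occupancy kept much of its order between the times. Across spots the mean log2(IP/WCE) at 30 min correlated with that at 60 min at r = 0.82. Between single replicates r was 0.83 to 0.86 within 30 min, 0.74 to 0.85 within 60 min and 0.68 to 0.77 across times. Replicate 1 at 60 min stood apart from its group, with r = 0.77 and 0.74 against replicates 2 and 3, which correlated at 0.85 with each other. The SD of the ratios over spots was 1.03 ± 0.031 (SD, n = 3) at 30 min and 0.96 ± 0.11 at 60 min, a difference that did not pass the 2-sided exact permutation test (p = 0.40, adjusted p = 0.40). The change from 30 to 60 min had a median of 0.03 on the log2 scale, with 90% of spots between -0.73 and 0.92. It exceeded 1 at 259 spots and was below -1 at 133. The median standard error of a change was 0.25.

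**Figure D1:**
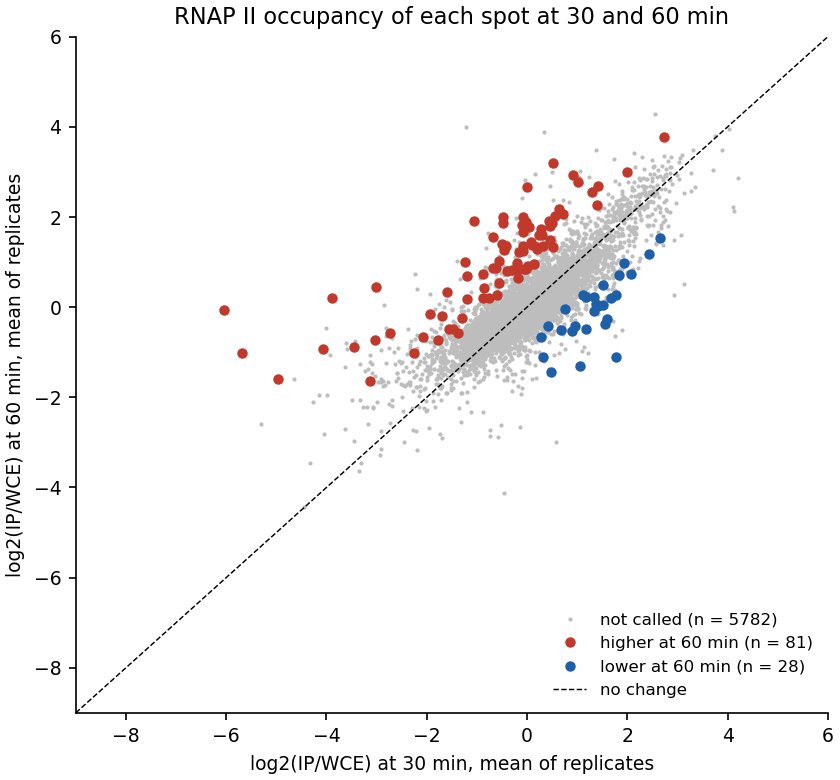
Mean log2(IP/WCE) of each of 5891 spots at 30 min (horizontal axis) and at 60 min (vertical axis), each centred on the median of its hybridization pair. Red points are the 81 spots with higher and blue points the 28 with lower occupancy at 60 min (adjusted p below 0.05 in limma); 36 red points lie below 0 at 30 min and above 0 at 60 min, and all blue points lie above 0 at 30 min.

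Occupancy changed at 109 of 5891 spots between 30 and 60 min, of which 81 rose and 28 fell (adjusted p below 0.05, limma, with the Benjamini-Hochberg method applied over all spots). That is 1.37% of spots tested for the rise and 0.475% for the fall. Without adjustment, 985 spots had p below 0.05, with 553 higher and 432 lower at 60 min. The counts depended on having all 3 replicates. Leaving out replicate 1, 2 or 3 at 30 min gave 22, 68 and 18 spots, and leaving out replicate 1, 2 or 3 at 60 min gave 53, 28 and 28. In each of these fits more spots rose than fell. Over all settings tried the count was 13 to 189.

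Among the 5653 spots with 6 values, all 3 replicates at 60 min lay above all 3 at 30 min at 860 spots (15.2%) and below them at 719 spots (12.7%). All 101 changed spots that had 6 values were among these. The call used the same values, so this was close to given in advance and is no support for it. The remaining 8 changed spots, 7 that rose and 1 that fell, had only 2 values at one of the times or both.

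For the spots that rose, the median log2(IP/WCE) at 0, 30 and 60 min was 0.50, -0.30 and 1.02, where the upper quartile of all spots at 60 min was 0.51. Hybridization by hybridization, the median over the 81 spots was 0.55, 0.60 and 0.42 at 0 min, -0.40, -0.21 and -0.34 at 30 min and 1.19, 1.09 and 1.04 at 60 min. That the 30 min medians lie below those at 60 min follows from how the spots were chosen. Of the 81 spots, 36 went from below the array median to above it, 28 were above it at both times and 17 were below it at both. Of all 5891 spots, 499, 2424 and 2467 did so. The rise had a median of 1.40 on the log2 scale, with quartiles of 1.10 and 1.90 and a range from 0.82 to 5.98. It exceeded 2 at 18 spots and 3 at 6. All of these 6 had WCE among the dimmest 25% and fewer than 3 values at one of the times or both, and at the largest rise the run-on change was -1.85. The top of the range therefore rests on weak and incomplete measurements.

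For the 28 spots that fell, the median log2(IP/WCE) at 0, 30 and 60 min was 0.23, 1.36 and -0.0037. By hybridization it was 0.00, 0.31 and 0.17 at 0 min, 1.39, 1.26 and 1.34 at 30 min and 0.04, -0.03 and -0.22 at 60 min. The level at 60 min was therefore close to that of the middle spot of the array. All 28 were above the array median at 30 min, and 14 of them were below it at 60 min. Of all 5891 spots, 501 went from above it to below it and 2424 were above it at both times. The choice of the spots by their fall favours high values at 30 min, so these counts are a description. The fall had a median of -1.36, with a range from -2.87 to -0.79, and 2 of the 28 were below -2. WCE was among the dimmest 25% at 9 of the 28 spots that fell (32.1%) and at 14 of the 81 that rose (17.3%).

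**Figure D2:**
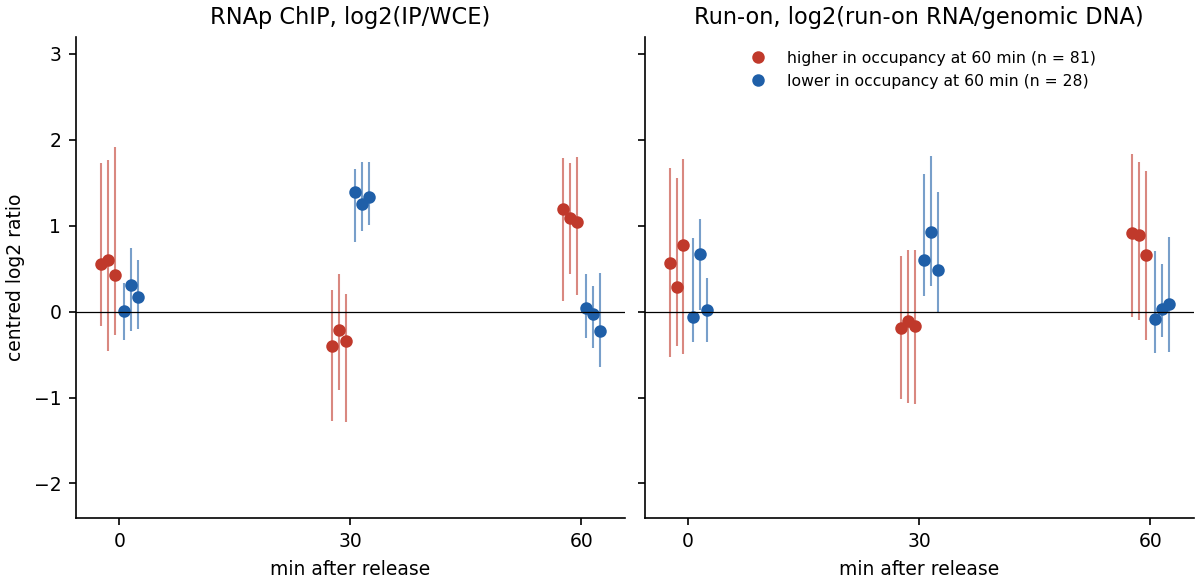
Median (points) and quartiles (lines) of the centred log2 ratio over the 81 spots whose occupancy rose (red) and the 28 whose occupancy fell (blue) from 30 to 60 min, in each of the 3 replicates at 0, 30 and 60 min; the left panel shows RNAp ChIP and the right panel run-on, which played no part in choosing the spots. In RNAp ChIP the red medians at 30 min lie between -0.40 and -0.21 and the blue ones between 1.26 and 1.39, and in run-on at 30 min all 3 red medians lie below 0 and all 3 blue ones above 0.

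The arrested cells were read from hybridizations of their own, which also entered the fit that called the spots. Where their value lies relative to 30 and 60 min depends also on the values that chose the spots, so the following counts are a description. At 27 of the 28 spots that fell (96.4%) the 0 min mean was nearer to the 60 min than to the 30 min mean. At 56 of the 81 spots that rose (69.1%) it was nearer to the 60 min mean, against 58.5% of all spots. The 0 min value lay between the values of the other times at 20 spots that fell (71.4%) and at 55 that rose (67.9%), against 31.2% of all spots. It lay beyond the 60 min value at 8 that fell (28.6%) and at 21 that rose (25.9%), against 41.4% of all spots. At the other 5 spots that rose (6.17%) it was below the 30 min value, and at 27.4% of all spots it lay beyond that value. The shares of all spots are not matched for the size of the change.

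The changes from 0 min, taken from the same fit, share hybridizations with the change from 30 to 60 min and are given only side by side with it. The 30 and 60 min values chose the spots, so nothing is read from these counts beside the shares of all spots. The spots that fell had a median change of 1.13 from 0 to 30 min and of -0.18 from 0 to 60 min, and 22 of the 28 had risen from 0 to 30 min (adjusted p below 0.05, limma), which 1.68% of all spots did. The spots that rose had medians of -0.98 and 0.37, with 40 of the 81 past the threshold as a fall from 0 to 30 min, against 3.52% of all spots, and 1 as a rise. From 0 to 60 min 13 of the 81 were higher and 4 were lower, against 0.934% and 1.48% of all spots, and the others did not pass the test. Of the 28 that fell 1 was lower and 0 were higher from 0 to 60 min.

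Named spots show the values behind these groups. The spot R10 - C5 : 3 had the largest rise among spots with complete values, replicates that did not overlap and WCE outside the dimmest 25%. Its log2(IP/WCE) was 0.10, 0.37 and 1.30 at 0 min, -1.13, -0.75 and -1.28 at 30 min and 1.22, 2.41 and 2.08 at 60 min. The 3 values at 30 min were lower than all others, and the change from 30 to 60 min was 2.95 (standard error 0.38, adjusted p = 0.00915, limma), or 7.75-fold. Its IP intensity went from 241, 362 and 269 to 2241, 2603 and 8531, whereas its WCE intensity, at 809, 825 and 1055 and then at 1380, 657 and 2181, overlapped between the times. The adjusted p in limma ranged from 0.0023 to 0.099 over the alternatives, and was above 0.05 under loess normalization and without replicate 1 or 3 at 30 min or replicate 3 at 60 min. Its run-on ratio was high throughout, between 2.08 and 2.38 in arrested cells, between 1.18 and 1.79 at 30 min and between 2.13 and 2.98 at 60 min, with the lowest values at 30 min as well. The run-on change from 30 to 60 min did not pass the threshold there (adjusted p = 0.16, limma).

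The spot R9 - C17 : 3 had the next largest rise and stayed below its level in arrested cells. Its log2(IP/WCE) was 2.18, 1.72 and 1.78 at 0 min, -3.0, -3.19 and -4.17 at 30 min and -0.93, -0.85 and -0.85 at 60 min. The time points did not overlap, and the change from 0 to 60 min was -2.77 (adjusted p = 0.00125, limma). The rise from 30 to 60 min was 2.58 (standard error 0.30, adjusted p = 0.00641, limma), or 5.97-fold. The IP intensities at 30 min, 52.4, 31.5 and 8.72, were far below the array's median intensity at that time. Run-on lay between -1.71 and -1.19 in arrested cells, between -3.88 and -3.06 at 30 min and between -3.79 and -2.56 at 60 min, so that in run-on the values of 30 and 60 min overlapped. The difference between its changes in the assays did not pass the test (adjusted p = 0.062 for the interaction in limma).

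The spots with the largest falls under the same conditions were R10 - C23 : 16 and R11 - C21 : 8. At R10 - C23 : 16 log2(IP/WCE) was -0.07, 0.69 and 0.84 at 0 min, 1.48, 1.36 and 1.98 at 30 min and -0.27, -0.20 and -0.35 at 60 min. The 60 min values were below every other value, and the change from 30 to 60 min was -1.88 (standard error 0.27, adjusted p = 0.0129, limma). This call was lost, with adjusted p between 0.055 and 0.060 in limma, without replicate 1 or 3 at 30 min or replicate 2 or 3 at 60 min. At R11 - C21 : 8 the ratio was 0.33, 0.34 and 0.57 at 0 min, 1.64, 1.96 and 1.71 at 30 min and 0.16, 0.13 and 0.54 at 60 min. The 60 min values overlapped those of arrested cells and the 30 min values were above both, with a change of -1.49 from 30 to 60 min (standard error 0.18, adjusted p = 0.00706, limma). Run-on at R11 - C21 : 8 had its highest values, 1.86 to 2.81, at 30 min too, against -0.06 to 0.13 at 0 min and 0.84 to 1.33 at 60 min. All 4 spots kept their direction under every alternative that measured them. With the mean WCE of all hybridizations as denominator only R10 - C5 : 3 of the 4 passed the threshold.

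**Figure D3:**
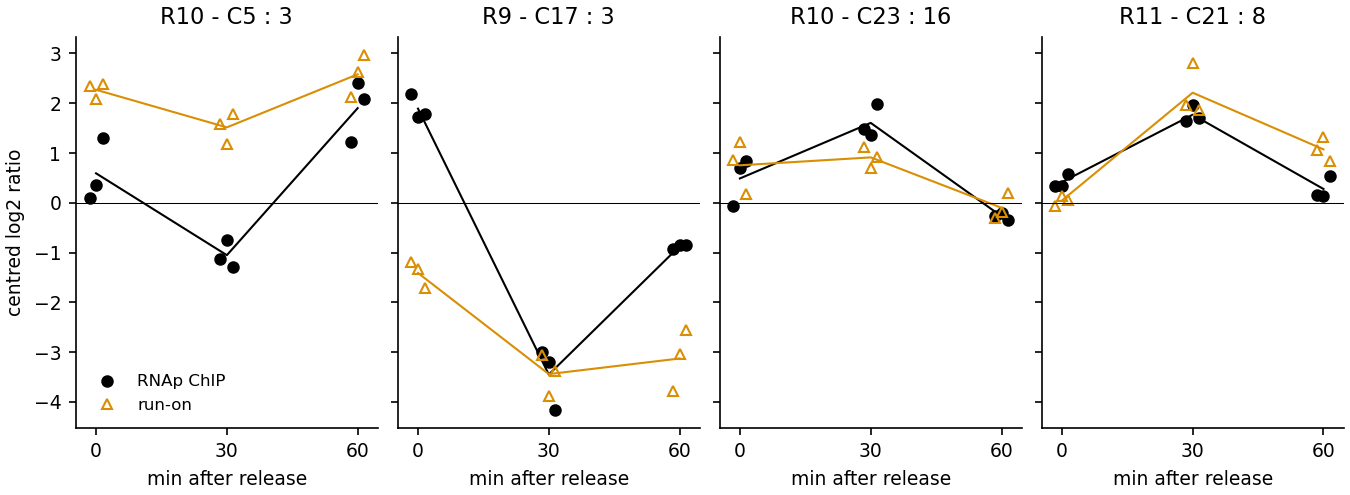
Centred log2 ratio (vertical axis) of the 4 named spots at 0, 30 and 60 min after release (horizontal axis), with filled circles for single RNAp ChIP replicates, open triangles for single run-on replicates and lines through their means. In RNAp ChIP the first 2 spots are lowest and the other 2 highest at 30 min, where the means are -1.05, -3.45, 1.61 and 1.77.

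Both sides of the ratio were examined, since a change in IP/WCE can come from either. On centred log2 intensity of IP alone 12 of 5891 spots changed (0.204%), 10 upward and 2 downward, and 7 of the 12 were among the 109. On WCE alone 0 spots changed (0%) in limma, with 495 at an unadjusted p below 0.05, and the same fit of IP had 753. Most of the change at the called spots was in IP. Those that rose had a median change of 1.45 in IP and -0.10 in WCE. All 81 rose in IP by value, as did 2053 of the 3091 spots with a positive change in the ratio. Those that fell had a median of -1.46 in IP and -0.09 in WCE. In IP 26 of 28 fell by value, as did 1862 of the 2800 spots with a negative change in the ratio. The change in IP was larger in size than that in WCE at 75 of the 81 and at 25 of the 28, against 3247 of all 5891 spots. These counts describe spots chosen by the ratio and are no test.

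Single intensities varied more between replicates than their ratio did. The median residual SD was 0.48 for IP and 0.46 for WCE on the log2 scale, and 0.31 for the ratio. Over all spots the change in IP and the change in WCE from 30 to 60 min correlated at r = 0.69, and these intensities share probes. The source of this shared change was not tested. With the mean of all WCE hybridizations as the denominator only 13 spots changed, 11 upward and 2 downward, of which 8 were among the 109.

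**Figure D4:**
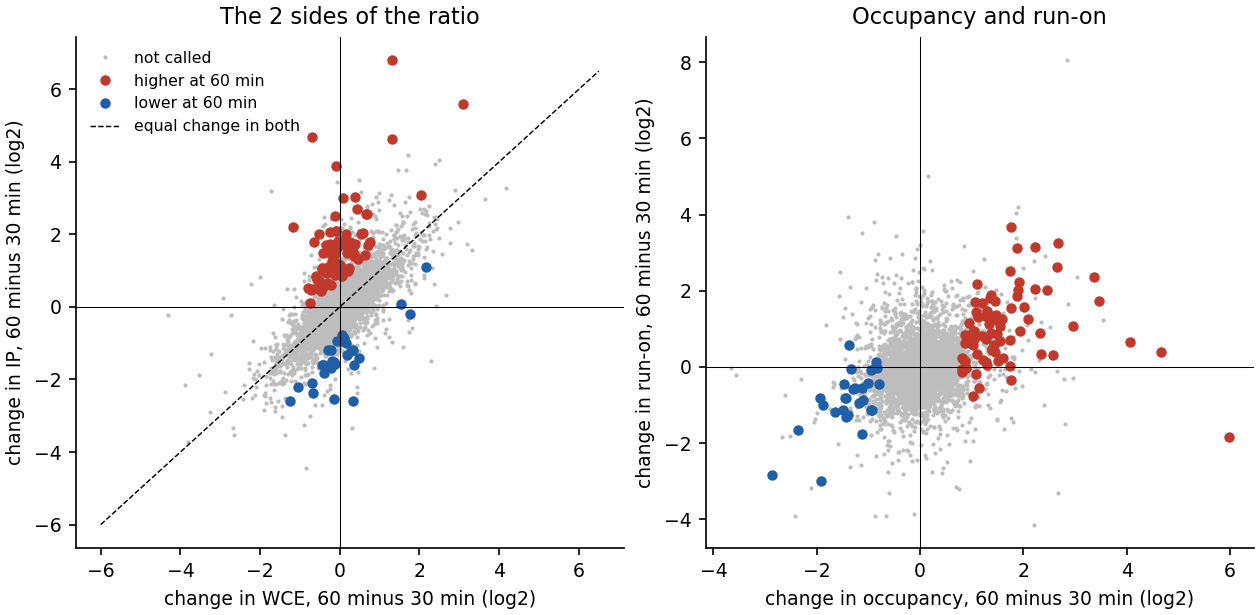
Left, the change from 30 to 60 min in centred log2 IP intensity (vertical axis) against that in WCE (horizontal axis) for each spot; right, the change in run-on (vertical axis) against the change in occupancy (horizontal axis). Grey points are spots not called, red the 81 with higher and blue the 28 with lower occupancy at 60 min; the red and blue points spread along the IP axis, where their medians are 1.45 and -1.46, and 70 red points lie above 0 and 25 blue points below 0 in run-on.

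Run-on, from separate hybridizations of labelled RNA, was not used to choose the changed spots. Of the 81 spots whose occupancy rose, 78 were measured in run-on and 70 of them (89.7%) had a higher run-on ratio at 60 than at 30 min, against 53.7% of all spots with a positive occupancy change and 47.0% of all spots. Of the 28 that fell, 27 were measured and 25 (92.6%) had a lower run-on ratio. Among all spots with a negative occupancy change this share was 60.4%, and among all spots it was 53.0%. The shares set beside the called spots are not matched for the size of the occupancy change. Its median was 0.28 over all spots with a positive change and -0.27 over all with a negative one. The median run-on change was 0.89 at the spots that rose and -0.82 at those that fell. The run-on medians of the spots that rose were 0.57, 0.29 and 0.78 at 0 min, -0.19, -0.11 and -0.17 at 30 min and 0.91, 0.89 and 0.66 at 60 min, so the run-on medians were lowest at 30 min. For the spots that fell they were -0.06, 0.68 and 0.02 at 0 min, 0.60, 0.92 and 0.48 at 30 min and -0.09, 0.03 and 0.09 at 60 min. One value at 0 min thus overlapped those at 30 min. Over both directions the run-on change had the sign of the occupancy change at 90.5% of the measured changed spots. With the RNAp ChIP times exchanged, as in the titles, this share would be 9.52%. Between single run-on replicates this share was 78.8% to 90.3% over 9 pairs, and it was 87.6% to 100% when the changed spots were called under the other settings of the occupancy fit.

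Few spots passed the threshold in run-on itself. Between these times 28 of 5737 spots changed in run-on (0.488%), 24 upward and 4 downward, and 782 had an unadjusted p below 0.05. Of these 28 spots, 13 also changed in occupancy, all of them upward in both assays, which is 13 of the 81 spots that rose. None of the 28 spots whose occupancy fell passed the threshold in run-on. All 28 spots called in run-on had an occupancy change of the same sign, with a median of 1.56 for the 24 and -0.56 for the 4. Of all spots measured in both assays, 1608 of the 2678 with a rise in run-on rose in occupancy too. Of the 3020 with a fall in run-on, 1631 fell in occupancy too. These counts over all spots are not matched for the size of the run-on change. The median residual SD in run-on was 0.40 against 0.31 in occupancy. Leaving out any single run-on replicate at 30 or 60 min left 3 to 11 spots. Without replicate 3 at 30 min, the one its description does not mention, 3 were left. Without replicate 2 at 60 min 3 were left too, and without replicate 1 at either time 4.

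Whether the changes in the assays differed was tested as an interaction on z-scores over the 5698 spots that had both. The difference passed the threshold at 3 spots (0.0527%, adjusted p below 0.05, limma), and 619 had an unadjusted p below 0.05. At all 3 occupancy changed upward relative to run-on, and 2 of them were among the 81 spots that rose. On log2 ratios instead of z-scores 0 spots passed. A spot called in one assay only is therefore not shown to differ between them, apart from the 2 of these called in occupancy, and there on z-scores only.

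The place of the changed spots was read on the array, which has 384 blocks in 16 rows and 24 columns with 16 positions each. The median change of a column ran from -0.24 to 0.18 on the log2 scale, of a row from -0.07 to 0.10 and of a position from -0.09 to 0.16. In columns 3 to 8, where the median change was 0.13, there were 36 of the 81 spots that rose and 2 of the 28 that fell, while these columns hold 24.9% of spots. In columns 21 to 24, where the median change was -0.16, there were 4 that rose and 13 that fell, among 16.6% of spots. These columns were picked after the values were seen. Between single replicates the median of column 24 ran from -0.60 to 0.11. After removal of the column medians 117 spots changed, 82 upward and 35 downward, and 90 of these were among the 109. After removal of the block medians 189 spots changed, with 127 higher, 62 lower and 85 shared. Without both sets of columns 47 spots changed, 37 upward and 10 downward, and the run-on change had the same sign at 95.6% of those measured. Of the named spots, R10 - C5 : 3 lies in columns 3 to 8, and R10 - C23 : 16 and R11 - C21 : 8 lie in columns 21 to 24. That fit therefore did not measure them. Their changes of 2.95, -1.88 and -1.49 became 2.88, -1.72 and -1.43 without the column medians. They became 2.53, -1.46 and -1.35 without the block medians. The part of array position in the changes was otherwise not tested.

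**Figure D5:**
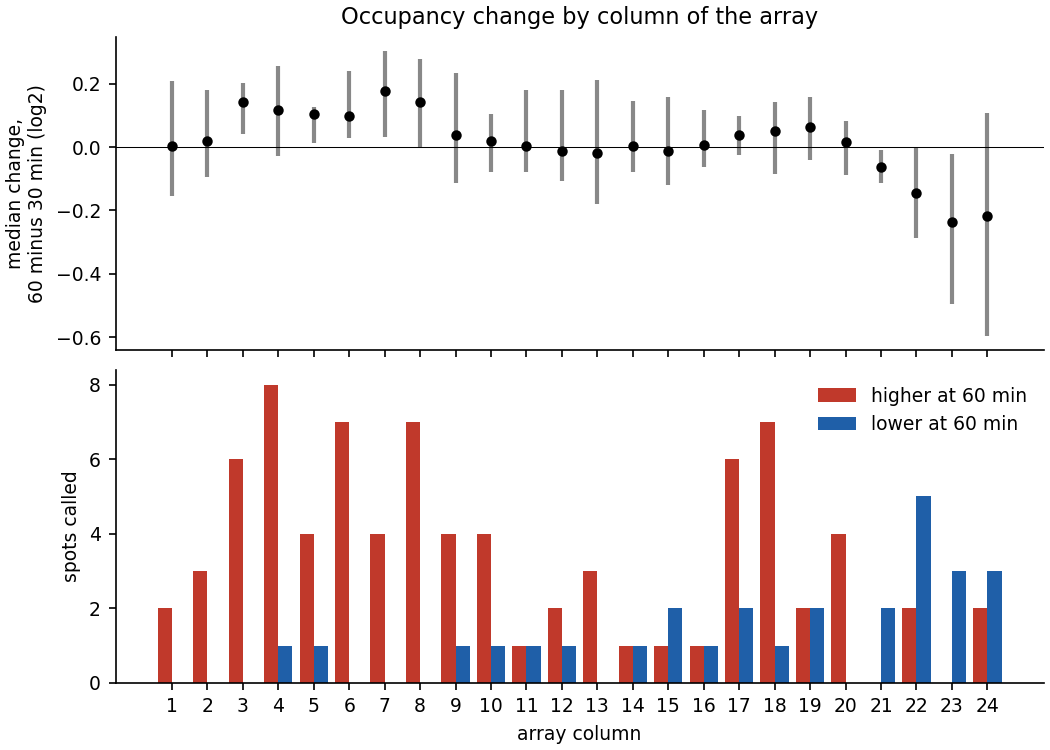
Upper panel, median change in log2(IP/WCE) from 30 to 60 min over the spots of each array column (points; horizontal axis, column 1 to 24), with lines from the lowest to the highest median over the 9 pairs of single replicates. Lower panel, number of spots called higher (red) or lower (blue) at 60 min in each column; columns 3 to 8 hold 36 of the 81 red and columns 21 to 24 hold 13 of the 28 blue spots.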

How the data were processed

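The authors hybridized labelled material to nylon filters with whole-ORF probes, scanned them in a phosphorimager and deposited each spot's intensity after subtracting background, with hybridizations not scaled to one another. The ChIP material was PCR-amplified first, a step that can favour some fragments. No gene names accompany the 6144 array positions. An intensity of 0 was treated as missing, and the study's threshold against background was not applied because no background values were used here. The number of arrays limits the precision. The labels speak of 3 experiments but do not tie hybridizations to them, so p-values measure the spread between these hybridizations, which may be technical.

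Each IP was divided by the WCE of its number, and each run-on signal by the genomic DNA signal of its filter, as log2 ratios from which the median over spots was subtracted. Spots needed 2 or more values at 30 and at 60 min. Changes were tested by limma 3.58.1 (R 4.3.3), fitting together the 9 ratios of an assay at 0, 30 and 60 min, with Benjamini-Hochberg adjustment over all spots and a threshold of 0.05. The assays were compared in one fit of both, on z-scores within each hybridization. The fits were tested on simulated data with independent normal noise. The simulation held no shifts by array column and no changes shared by IP and WCE, so it does not cover these. Alternatives changed the normalization, the filter, the denominator, the samples fitted and the replicates kept, and those on array columns were chosen after seeing the data. Named spots are the largest 2 rises and 2 falls past the threshold with values in all 3 replicates at all times, replicates of 30 and 60 min that did not overlap and WCE outside the dimmest 25%. The comparison, the spots and the settings were chosen with earlier results of these data known. Figures were drawn with matplotlib 3.10.9 in Python 3.11.15.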

Additional observations from a re-analysis of the deposited data

Results flagged for a closer look

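At 3 spots the change from 30 to 60 min differed between RNAp ChIP and run-on by the test of the difference itself (interaction in limma, adjusted p below 0.05). The differences were 1.74, 1.33 and 2.18 in z-score, each with occupancy changing upward relative to run-on. The count was 0 on log2 ratios and 0 to 5 when single replicates were left out, and 1 of the 3 spots belonged to the 25% with the dimmest WCE. The spots called without a replicate were not always the same. At most 2 of these 3 were called in any such fit.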

How the results depend on the processing

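The count of 109 changed spots was within 1.5 times under 11 of 22 other settings. It was 34 with loess normalization, 189 with block medians removed, 13 with the mean WCE as denominator and 47 without array columns 3 to 8 and 21 to 24, the last chosen after the data were seen and with fewer spots tested. Leaving out 1 replicate gave 18 to 131. With the replicate number as a block it was 41, with 33 higher and 8 lower and 38 shared with the 109. Same-numbered replicates at 30 and 60 min did not deviate from their group means together (r = 0.0050, -0.050 and -0.057 across spots), so the numbers are not taken to pair the samples. The share of spots that rose was 74.3%, 84.6% with the mean denominator (11 up, 2 down), 65.6% with quantile normalization and 67.2% with block medians removed. The share of changed spots with run-on in the same direction, 90.5%, was 100% with loess, 95% with the replicate block, 95.6% without those columns and 90.5% to 96.3% without single replicates.

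The 28 changed spots in run-on became 8 in a fit of 30 and 60 min alone, 72 without the dimmest genomic DNA, 4 with the replicate block and 3 to 11 without single replicates. The 3 spots with a different change became 0 on log2 ratios, 0 with the replicate block and 0 to 5 without single replicates, of which at most 2 were among the 3. The 12 spots changed in IP became 32 in a fit of the 6 hybridizations, 2 with the replicate block and 0 to 3 without single replicates. For WCE the count was 0 or 1. Apart from settings with fewer spots or samples, the cause was not tested.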

Other observations

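By occupancy in arrested cells, the 1472 spots highest in log2(IP/WCE) at 0 min held 40 that rose and 6 that fell from 30 to 60 min, or 3.13%. In the next lower groups of like size, from the lowest up, 1.70%, 1.16% and 1.43% changed. The 0 min ratios were in the fit that called the spots and helped to set its spread, so they are not separate from the calls. Among the 1465 spots with the highest run-on ratio at 0 min 38 rose and 7 fell, or 3.07%, against 1.71%, 1.16% and 1.5% in the others. By WCE signal, 1.56% of the dimmest 1473 spots and 2.31% of the brightest changed, and the median residual SD was 0.47 and 0.28. Whether these shares differ was not tested.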
